A study of Homo sapiens with 6 samples.

Results

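The 43 genes described here encode the lysosomal hydrolases, the membrane proteins of the lysosome, the subunits of the vacuolar ATPase that acidifies it, and the 3 transcription factors TFEB, TFE3 and MITF. They were chosen by name, as a list of 43 symbols, with earlier results of these data known, as were the other gene lists below. All 43 were found among the 58336 gene identifiers of the count tables. RNA came from 12Z, an established human endometriotic epithelial cell line, in 2 groups of 3 libraries. One group was transfected with an siRNA against SMARCA4 (siBRG1) and the other with a non-targeting siRNA (control), each at 50 nM. In both groups the cells had been grown in 10% serum, were moved to 0.5% serum at 48 h and were harvested at 72 h. BRG1, the product of SMARCA4, is a motor subunit of SWI/SNF, which moves nucleosomes. The extraction protocol, shared by all samples, speaks of a drug or vehicle step, but no label assigns one to a sample. All 3 controls, and none of the siBRG1 samples, are marked in the labels as reused from an older series, so for every gene below the groups and their origin cannot be told apart.

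Lysosomes are acidic vesicles in which proteases, glycosidases, sulfatases and lipases break down material delivered by endocytosis and autophagy. The vacuolar ATPase holds their lumen acidic: its cytosolic V1 sector hydrolyses ATP and turns a rotor that drives protons through the membrane-embedded V0 sector. TFEB, TFE3 and MITF are related basic helix-loop-helix leucine zipper factors that bind the CLEAR element, an extended E-box found in front of many lysosomal genes. Their activity is set largely by mTORC1, which holds them in the cytoplasm by phosphorylation, so their RNA level is not a measure of it. Cathepsins can also be secreted and then act on the matrix outside the cell.

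SMARCA4 stood at 60.5, 78.9 and 50.6 CPM in the siBRG1 libraries and at 244, 266 and 262 CPM in the control libraries (CPM, the counts of a gene scaled to a common TMM-normalised library total, in replicate order), which follows the labels. Counts assigned to genes came to between 12391161 and 13369692 per siBRG1 library and between 40228678 and 49720320 per control library. Of 8 markers fixed for 12Z, 8 reached 1 CPM in siBRG1 and 7 in control, with a summed level of 5332 to 5453 and 6247 to 6454 CPM; 3 of the 8 rose and 4 fell. KRT8 was abundant in both groups (means of 1655 and 1556 CPM), KRT7 fell most (log2 fold change −2.40), and the epithelial adhesion gene EPCAM, which rose, totalled only 63 and 33 counts. Of 8 macrophage markers CD163, TYROBP and AIF1 were at 0 counts in all 6 libraries, and the summed level of the list was 9.69 to 10.6 CPM in siBRG1 and 4.18 to 5.58 CPM in control, with CD14 at means of 9.39 and 4.08 CPM. Of 7 stromal fibroblast markers 6 were higher and 1 was lower in siBRG1, none was at 0, and their summed level was 3459 to 3647 CPM in siBRG1 and 2419 to 2563 CPM in control; the part of this shift in the results below was not tested. Separate cultures are not stated for the replicates, and the p-values therefore reflect only how these libraries spread, which may be technical.

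Lysosomal hydrolases were higher after SMARCA4 knockdown and proton pump subunits went both ways. Of the 43 genes 42 had enough counts to be tested; 28 rose and 10 fell at an adjusted p under 0.05, and 4 did not pass. Over all 15830 genes tested, 36.1% rose and 36.5% fell (72.6% called in either direction), so a call in itself is common in these data. The median log2 fold change (siBRG1 over control) was 0.36 over the 42 genes and −0.01 over all genes tested. A rise of at least 2-fold was found for 8 of the 42 and a fall of that size for 0, against 10.4% and 11.1% of all genes tested. In 36 of the 42 the CPM of both groups did not overlap, which held for 74.3% of all genes tested. Over cathepsins, glycosidases, other hydrolases and PSAP together, 18 of 22 rose and 1 fell (median 0.65). Over the proton pump, 4 of 12 tested genes rose and 8 fell (median −0.15). With bulk RNA, fewer cells of a type and less RNA per cell cannot be told apart.

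**Figure D1:**
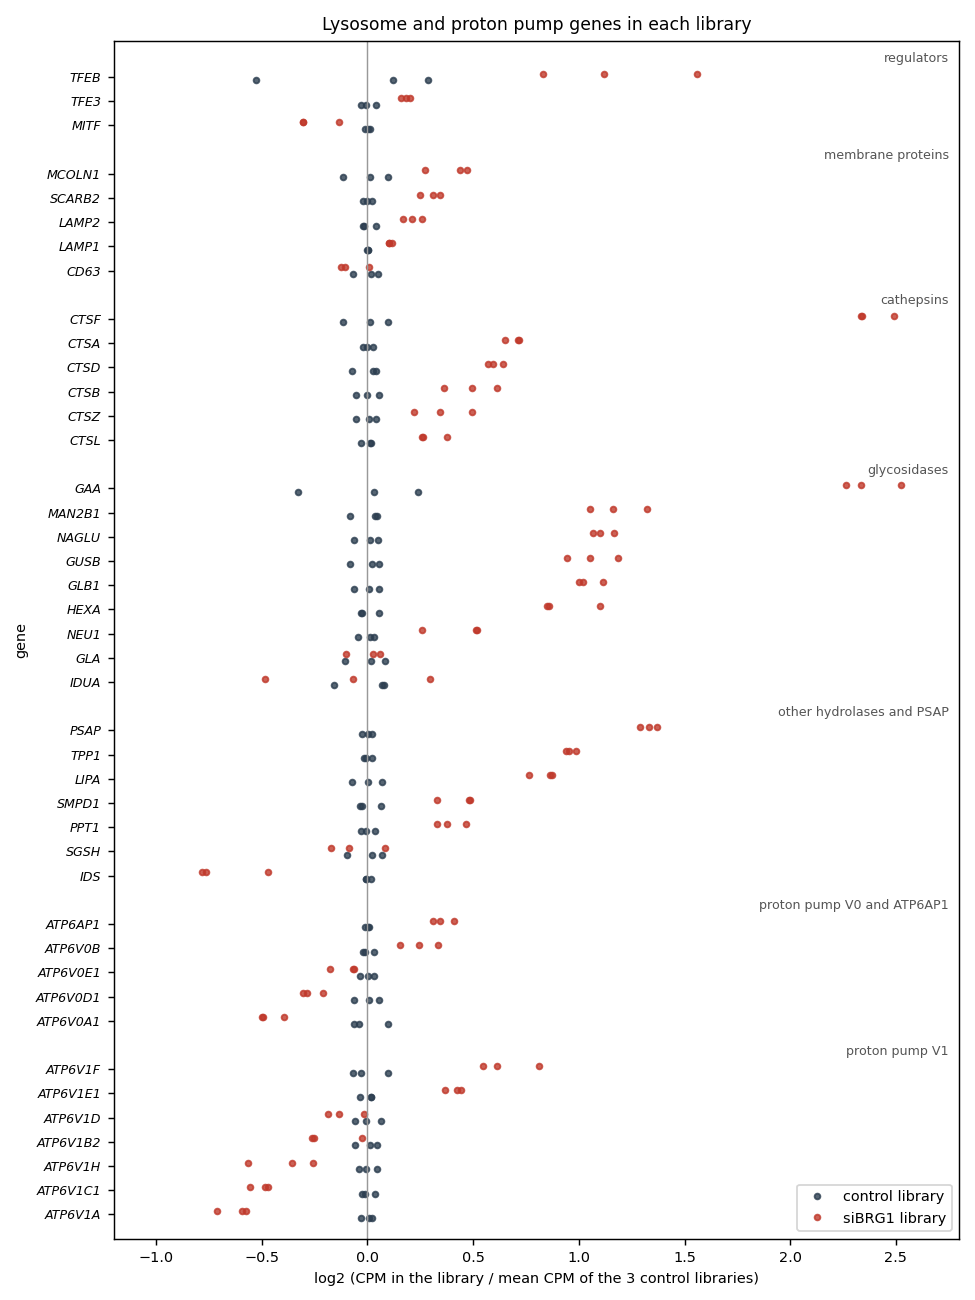
Each point is the CPM of 1 library relative to the mean of the 3 control libraries (log2, horizontal axis) for the 42 tested genes, grouped by class and ordered by change. CTSF and GAA lie farthest to the right, and the siBRG1 points of most proton pump V1 genes lie left of 0.

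Among the regulators, TFEB rose from a low level. It stood at 3.79, 4.63 and 6.27 CPM in siBRG1 and at 2.59, 1.48 and 2.31 CPM in control. The groups did not overlap, as in 74.3% of all genes tested, but the libraries of both groups spread widely (log2 fold change 1.18 with SE 0.219, adjusted p = 2.32e-05). With a library left out the log2 fold change of TFEB ranged from 0.97 to 1.34. TFE3 was far more abundant per exon length, at 22.9 CPM per kb in siBRG1 and 20.2 in control, against 0.867 and 0.377 for TFEB. TFE3 measured 98.0, 99.2 and 96.4 CPM in siBRG1 and 85.9, 88.9 and 84.6 CPM in control, a small rise (log2 fold change 0.18 with SE 0.0456, adjusted p = 0.000953). MITF, the family member best known from melanocytes, fell slightly, from 19.2, 19.3 and 19.0 CPM in control to 17.5, 15.5 and 15.5 CPM in siBRG1 (log2 fold change −0.24 with SE 0.0857, adjusted p = 0.0124). Of 5 melanocyte markers TYR and DCT had 0 counts in all 6 libraries and PMEL rose (log2 fold change 2.26, 68 counts in siBRG1 and 46 in control). Their summed level was 2.51 to 4.63 CPM in siBRG1 and 1.71 to 2.14 CPM in control, and its part in the results was not tested. A second fit corrected each library for its trends with transcript GC content and length. There TFEB kept its call (log2 fold change 0.89), while TFE3 (−0.088, adjusted p = 0.0742) and MITF (−0.18, adjusted p = 0.0614) did not pass.

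CLEAR-type letters stood near the start of several of these genes, and whether they bear on the changes was not tested. Windows of 250 bases before to 50 after a transcription start (RefSeq, GRCh38.p14) were on hand for 32 of the 43 genes; those without one are LAMP2, CTSB, HEXA, NAGLU, SGSH, PSAP, ATP6V0E1, ATP6V1A, ATP6V1B2, ATP6V1C1 and ATP6V1H. The motif TCACGTG, searched on both strands and with overlapping matches merged, was found in a window of 9 of the 32 genes (28.1%) and of 1226 of all 27305 genes with a window (4.49%). The longer CLEAR palindrome, TCACGTG with a G before it and AC after it, was found for 2 of the 32, GAA and MCOLN1, and for 115 of 27305 (0.421%). The E-box core CACGTG, which both contain, was found for 10 of the 32 (31.2%) and for 8.77% of all genes. As CLEAR is known from the front of lysosomal genes, higher shares among these genes are not a result of these data. The 27305 genes were not limited to the 15830 tested. The 250 bases upstream of the start are given for GAA (chr17:80101331-80101580, plus strand), MCOLN1 (chr19:7522374-7522623, plus strand) and LAMP1 (chr13:113296989-113297238, plus strand), 5′ to 3′, with TCACGTG on either strand in capitals. LAMP1 holds 6 such stretches in its window, the last of which crosses the start and is cut off here, and GAA and MCOLN1 hold 2 each.
GAA: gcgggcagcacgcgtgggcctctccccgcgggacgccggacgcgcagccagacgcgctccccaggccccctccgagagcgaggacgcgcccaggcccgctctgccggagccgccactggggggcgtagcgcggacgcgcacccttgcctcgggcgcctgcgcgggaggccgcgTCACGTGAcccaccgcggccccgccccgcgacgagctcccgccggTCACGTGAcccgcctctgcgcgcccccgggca
MCOLN1: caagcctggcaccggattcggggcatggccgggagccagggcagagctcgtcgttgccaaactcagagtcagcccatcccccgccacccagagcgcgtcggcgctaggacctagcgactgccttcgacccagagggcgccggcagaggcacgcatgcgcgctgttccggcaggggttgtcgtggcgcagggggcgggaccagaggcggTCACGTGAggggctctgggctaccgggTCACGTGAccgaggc
LAMP1: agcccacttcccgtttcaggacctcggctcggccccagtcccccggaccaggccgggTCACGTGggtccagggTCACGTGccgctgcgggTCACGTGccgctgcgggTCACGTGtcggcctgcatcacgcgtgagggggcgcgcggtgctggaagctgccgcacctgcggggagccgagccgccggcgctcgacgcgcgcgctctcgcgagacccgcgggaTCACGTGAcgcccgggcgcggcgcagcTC

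Of the 9 first matches 5 (CTSF, CTSA, CTSD, ATP6V0B and ATP6V0D1) lie inside the span of their own gene in GENCODE 29, whose first start is further upstream than the RefSeq start used for the window. For the other 6 holders the first match is given with its flanks, 27 bases each, so that genes that rose and the one that fell can be read side by side: CTSF (chr11:66568713-66568739, minus strand), CTSA (chr20:45891282-45891308, plus strand), CTSD (chr11:1763958-1763984, minus strand), NEU1 (chr6:31862932-31862958, minus strand), ATP6V0B (chr1:43974892-43974918, plus strand) and ATP6V0D1 (chr16:67481201-67481227, minus strand).
CTSF: atataacaagCACGTGAtagaggtcag
CTSA: aggaagactgTCACGTGgcgccggagt
CTSD: cggccgcgccCACGTGAccggtccggg
NEU1: tgctgcgtgaTCACGTGggaggagatg
ATP6V0B: cggcgtggggTCACGTGgtaccggcgc
ATP6V0D1: ccccttatggTCACGTGAggcgcttgc
Of the 9 genes with TCACGTG 8 rose and ATP6V0D1 fell (median log2 fold change 0.43). Of the 22 tested genes with a window and no such letters 15 rose, with a median of 0.36. Both counts are from the fit without correction for GC and length. In the corrected fit LAMP1 (log2 fold change −0.022), MCOLN1 (0.098) and ATP6V0B (−0.019) of the 8 did not pass. Of the 15 without such letters TFE3 (−0.088) and CTSZ (0.11) did not pass there. Over all genes tested 36.1% rose and 36.5% fell. The 11 genes without a window are in neither count, and the share of rises among all genes with the motif was not taken. LAMP1, with the most copies, had the smallest rise among the 8. A match is a description of these letters and says nothing of binding.

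All 6 cathepsins rose, by log2 fold changes of 0.30 to 2.39, beside 36.1% of all genes tested that rose. CTSF, a cysteine protease of the papain family (ENSG00000174080.10, chromosome 11, 66563463 to 66568841 on GRCh38, GENCODE 29), rose most of the 42 genes. It stood at 71.6, 79.6 and 71.4 CPM in siBRG1 and at 15.1, 14.3 and 13.1 CPM in control, a 5.22-fold difference with the groups far apart (log2 fold change 2.39 with SE 0.0679, adjusted p = 2.18e-22). CTSA, the carboxypeptidase that protects GLB1 and NEU1 in a complex, was 1.62-fold higher, at 268, 280.3 and 279 CPM against 170.2, 168 and 173 CPM (log2 fold change 0.69 with SE 0.0378, adjusted p = 9.56e-16). CTSA rose by 1.03 with unstranded counts, and 17.7% of its exon bases lie opposite NEURL2. CTSD, the main aspartic protease, stood at 85.2, 81.1 and 82.7 CPM against 55.8, 56.3 and 52.0 CPM (log2 fold change 0.60 with SE 0.0512, adjusted p = 1.91e-11). In GENCODE 29 41.7% of its exon bases also belong to AC068580.4 on the same strand, where reads are ambiguous in gene counting, so its level may be understated in both groups.

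The cysteine proteases CTSB, CTSZ and CTSL rose less, by 0.49 (SE 0.0471), 0.36 (SE 0.0553) and 0.30 (SE 0.0497) on the log2 scale. CTSZ was the most abundant cathepsin per exon length in control, at 34.8 CPM per kb against 44.6 in siBRG1. It measured 90.1, 99.8 and 82.6 CPM in siBRG1 and 73.0, 71.4 and 68.4 CPM in control. In the corrected fit 5 of the 6 kept their call; CTSZ did not (log2 fold change 0.11, adjusted p = 0.0631), CTSD had a log2 fold change of 0.26 and CTSF one of 2.14.

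Of 9 glycosidases 7 rose and 0 fell, 5 of them at least 2-fold, with a median log2 fold change of 1.04. Over all genes tested 36.1% rose, 10.4% at least 2-fold, and 36.5% fell. GAA, the acid alpha-glucosidase that breaks down glycogen (ENSG00000171298.12, chromosome 17, 80101556 to 80119879), stood at 25.1, 30.2 and 26.4 CPM in siBRG1 and at 5.35, 6.19 and 4.18 CPM in control, 5.19-fold higher (log2 fold change 2.38 with SE 0.115, adjusted p = 6.82e-17). MAN2B1, the lysosomal alpha-mannosidase, measured 37.6, 45.4 and 40.5 CPM against 17.1, 18.7 and 18.6 CPM (log2 fold change 1.18 with SE 0.0751, adjusted p = 3.03e-14). NAGLU, which acts on heparan sulfate, measured 14.8, 15.4 and 14.4 CPM against 6.94, 6.60 and 7.14 CPM (log2 fold change 1.11 with SE 0.107, adjusted p = 2.80e-10). The groups did not overlap in these 3 genes, which were named for the largest changes of the class, nor in 74.3% of all genes tested. MAN2B1 shares 13.1% and 8.09% of its exon bases with AC010422.3 and AC010422.5 on the same strand, and NAGLU 12.6% with AC067852.1.

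GUSB, the beta-glucuronidase, and GLB1, the beta-galactosidase, were 2.09-fold and 2.06-fold higher (log2 fold changes 1.06 and 1.04, SE 0.0605 and 0.0521). HEXA, the alpha subunit of beta-hexosaminidase, rose by 0.94 (SE 0.0611), or by 0.56 with unstranded counts, and the sialidase NEU1 by 0.43 (SE 0.0873). GLA, the alpha-galactosidase, was the most abundant glycosidase per exon length in control and did not pass: it measured 44.9, 40.1 and 43.9 CPM in siBRG1 and 45.6, 40.1 and 43.6 CPM in control (log2 fold change −0.0043 with SE 0.0641, adjusted p = 0.955). IDUA, the alpha-iduronidase, had only 2.86 ± 0.763 against 2.96 ± 0.271 CPM (SD, n = 3) and did not pass either (log2 fold change −0.046 with SE 0.208, adjusted p = 0.849). The corrected fit kept the 7 rises, with a median of 0.84 over the class and NEU1 at 0.26, and IDUA passed as lower (log2 fold change −0.47, adjusted p = 0.0422).

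Of the other hydrolases and PSAP, 5 of 7 rose and IDS fell, beside 36.1% and 36.5% of all genes tested. PSAP, the precursor of the saposins that present sphingolipids to hydrolases (ENSG00000197746.13, chromosome 10, 71816298 to 71851375), was the most abundant of all 43 genes per exon length, at 421 CPM per kb in siBRG1 and 167 in control. It measured 1326, 1399.6 and 1363 CPM in siBRG1 and 550.2, 542 and 533 CPM in control, 2.51-fold higher with the groups well apart (log2 fold change 1.33 with SE 0.0371, adjusted p = 1.34e-22). TPP1, a tripeptidyl peptidase, stood at 143, 139.9 and 138 CPM against 71.9, 71.4 and 73.4 CPM (log2 fold change 0.96 with SE 0.0434, adjusted p = 1.40e-17). LIPA, the acid lipase that frees cholesterol from its esters, stood at 164, 152 and 163 CPM against 94.0, 85.1 and 89.6 CPM (log2 fold change 0.83 with SE 0.0461, adjusted p = 1.31e-15). The groups of TPP1 and of LIPA did not overlap, which held for 74.3% of all genes tested.

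SMPD1, the acid sphingomyelinase, and PPT1, a thioesterase that removes palmitate from proteins, rose by 0.43 (SE 0.0624) and 0.39 (SE 0.0407) on the log2 scale. PPT1 shares 23.4% of its exon bases with CAP1 on the opposite strand, and rose by 0.44 with unstranded counts. IDS, the sulfatase of iduronate, was the only one of these 22 genes (hydrolases with PSAP) to fall, from 55.9, 56.0 and 56.9 CPM in control to 33.1, 32.7 and 40.6 CPM in siBRG1 (log2 fold change −0.67 with SE 0.0665, adjusted p = 5.40e-10). It shares 16.5% of its exon bases with AC244197.3 on the same strand. SGSH, the other sulfatase listed, did not pass at 35.9, 31.9 and 30.1 against 31.7, 34.4 and 35.6 CPM (log2 fold change −0.051 with SE 0.0714, adjusted p = 0.531). After correction SGSH passed as lower (log2 fold change −0.30, adjusted p = 0.000202), and the other calls of the class were kept, that of SMPD1 at 0.15 (adjusted p = 0.0327).

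Of the membrane proteins 4 of 5 rose and CD63 did not pass (median log2 fold change 0.21). Over all genes tested 36.1% rose. MCOLN1, the calcium channel TRPML1, stood at 21.8, 21.3 and 19.0 CPM in siBRG1 and at 14.5, 16.8 and 15.8 CPM in control (log2 fold change 0.40 with SE 0.0890, adjusted p = 0.000229). SCARB2, a membrane protein that also serves as a sorting receptor for a lysosomal enzyme, stood at 321, 308 and 329 CPM against 256, 264 and 259 CPM (log2 fold change 0.30 with SE 0.0376, adjusted p = 4.45e-08). LAMP2, a heavily glycosylated protein of the limiting membrane, rose from 201, 209 and 201 to 228, 236 and 243 CPM (log2 fold change 0.21 with SE 0.0387, adjusted p = 1.87e-05). In these 3 genes the groups did not overlap, which held for 74.3% of all genes tested, and the differences stayed under 1.5-fold.

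LAMP1, its close relative, measured 278, 275 and 276 CPM against 256, 257 and 257 CPM (log2 fold change 0.11 with SE 0.0362, adjusted p = 0.0103). That call was lost without control replicate 1, 2 or 3 (adjusted p = 0.0517, 0.0684 and 0.0628), with no count filter (log2 fold change 0.062, adjusted p = 0.242) and with protein-coding genes alone (0.065, adjusted p = 0.104). CD63, a tetraspanin of late endosomes and exosomes, was the most abundant of the class per exon length and overlapped between groups, at 344, 372 and 339.6 CPM against 353.5, 383 and 374 CPM (log2 fold change −0.073 with SE 0.0409, adjusted p = 0.112). It passed as lower without siBRG1 replicate 2 (adjusted p = 0.0107) and without control replicate 1 (adjusted p = 0.0188), and also with DESeq2 size factors in edgeR (adjusted p = 0.0499), no count filter (0.00933) and protein-coding genes alone (0.0134). In the corrected fit only LAMP2 and SCARB2 of the 5 were called higher, at log2 fold changes of 0.26 and 0.59, CD63 was called lower (−0.25, adjusted p = 3.16e-07), and MCOLN1 (0.098, adjusted p = 0.302) and LAMP1 (−0.022, adjusted p = 0.576) did not pass.

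In the V0 sector and ATP6AP1, 2 of 5 tested genes rose and 3 fell, beside 36.1% and 36.5% of all genes tested. ATP6V0A1, the subunit a isoform that anchors the stator, fell from 65.5, 64.4 and 71.8 CPM in control to 51.2, 47.6 and 47.8 CPM in siBRG1 (log2 fold change −0.46 with SE 0.0576, adjusted p = 4.35e-08). ATP6V0D1, which couples the rotor to the proteolipid ring, fell from 55.5, 57.3 and 52.7 to 44.7, 45.2 and 47.7 CPM (log2 fold change −0.27 with SE 0.0572, adjusted p = 0.000151). ATP6AP1, an accessory subunit needed for assembly, went the other way, at 168, 171 and 179 CPM in siBRG1 against 134, 136 and 135 CPM in control (log2 fold change 0.36 with SE 0.0406, adjusted p = 8.06e-09). The groups stood apart in each of the 3, as in 74.3% of all genes tested. The rise of ATP6AP1 came to 0.12 in the corrected fit (adjusted p = 0.0133).

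ATP6V0B, a proteolipid of the ring, rose by 0.24 (SE 0.0510), a call lost after correction (−0.019, adjusted p = 0.760). ATP6V0E1, a small membrane subunit and the most abundant of the class per exon length, stood at 136, 136 and 126 CPM against 139, 143 and 146 CPM (log2 fold change −0.10 with SE 0.0432, adjusted p = 0.0344). Its call was lost after correction (adjusted p = 0.830), with unstranded counts (log2 fold change −0.046), upper-quartile normalisation (adjusted p = 0.101) and at least 50 counts in 3 libraries (adjusted p = 0.0633), or when siBRG1 replicate 3 (adjusted p = 0.199) or control replicate 3 (adjusted p = 0.0816) was left out. ATP6V0C, the main proteolipid of the ring, totalled 8 counts in siBRG1 and 47 in control and was not tested. In GENCODE 29 57.5% of its exon bases also belong to AC093525.2 and 14.5% to AC093525.1 on the same strand, both at 0 counts in all libraries, so its level may be understated and no direction was drawn.

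Of 7 V1 subunit genes 5 fell and 2 rose (median log2 fold change −0.18), beside 36.5% and 36.1% of all genes tested. ATP6V1A, the catalytic subunit, fell most, from 128, 125 and 129 CPM in control to 85.5, 84.3 and 77.6 CPM in siBRG1 (log2 fold change −0.62 with SE 0.0466, adjusted p = 1.11e-12). ATP6V1C1, the subunit whose release parts the sectors, fell from 187, 179.8 and 181 to 131, 124 and 132 CPM (log2 fold change −0.50 with SE 0.0414, adjusted p = 9.78e-12). ATP6V1F, a small rotor subunit and the most abundant of the class per exon length, rose instead, at 71.1, 85.4 and 74.4 CPM in siBRG1 against 47.6, 52.0 and 46.4 CPM in control (log2 fold change 0.66 with SE 0.0613, adjusted p = 1.19e-10). It rose by 0.28 with unstranded counts, and 23.7% of its exon bases lie opposite KCP.

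ATP6V1E1, a stalk subunit, was the other that rose (log2 fold change 0.41, SE 0.0444). ATP6V1H, a regulatory subunit, and ATP6V1B2, which alternates with the catalytic subunit in the head, fell by 0.39 (SE 0.0638) and 0.18 (SE 0.0509) on the log2 scale. ATP6V1D, the central rotor shaft, fell by 0.11 (SE 0.0505, adjusted p = 0.0460), and its call was lost with unstranded counts (log2 fold change −0.057), upper-quartile normalisation (adjusted p = 0.112) and at least 50 counts in 3 libraries (adjusted p = 0.0775), and without siBRG1 replicate 1 or 2 or control replicate 1 or 3 (adjusted p = 0.238, 0.0972, 0.130 and 0.0539). In the corrected fit 4 of the 7 were called lower and 2 higher, ATP6V1B2 being the one that did not pass (−0.090, adjusted p = 0.10).

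**Figure D2:**
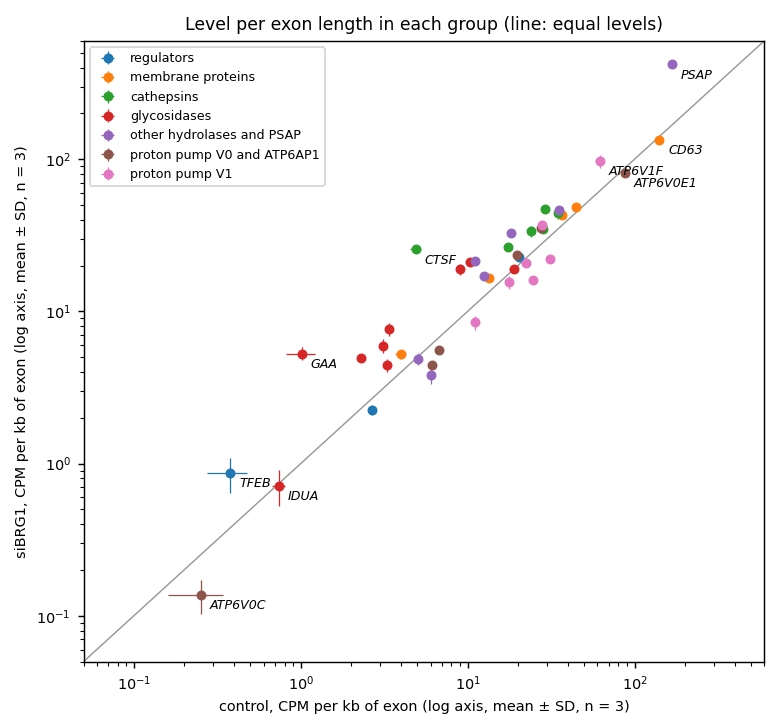
Mean CPM per kb of exon in control (horizontal) and siBRG1 (vertical) for all 43 genes on log axes, with SD over 3 libraries as bars and a line of equal levels. PSAP is the most abundant gene in both groups, CTSF and GAA lie farthest above the line, and ATP6V0C, which was not tested, lies lowest.

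The sums of each class were taken without correction for GC and length. Enzyme sums were higher in siBRG1 and the V1 sum was lower. Cathepsins together measured 822, 891 and 852 CPM in siBRG1 and 565, 554 and 543 CPM in control, a ratio of means of 1.54. Glycosidases together measured 380.1, 419 and 381 CPM against 217, 209 and 210.2 CPM, a ratio of 1.86. The other hydrolases with PSAP had a ratio of 2.0, and 1.40 without PSAP. The V0 genes with ATP6AP1 had a ratio of 1.03 and the V1 genes one of 0.895, at 639, 662.5 and 678 CPM in siBRG1 against 746, 726 and 739 CPM in control. All 3 enzyme sums were higher in every siBRG1 library than in any control library, and the V1 sum was lower in every one. Among single genes the groups did not overlap in 74.3% of all genes tested. No such share was taken for sums of other genes, so the separation does not set these classes apart. On correction the median log2 fold change went from 0.55 to 0.30 for cathepsins and from 1.04 to 0.84 for glycosidases. It went from 0.43 to 0.41 for other hydrolases and PSAP, and from −0.18 to −0.12 for V1 genes.

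**Figure D3:**
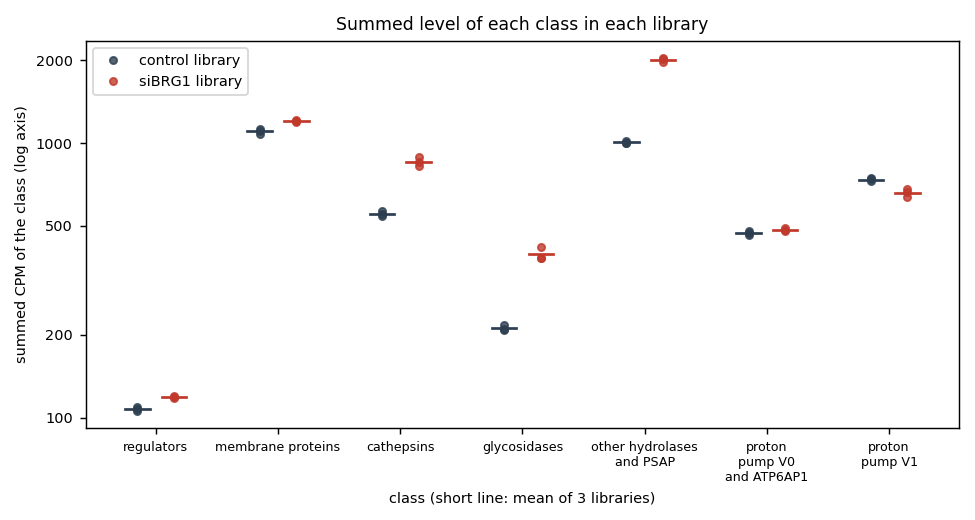
Summed CPM of each class (vertical, log axis) in each of the 6 libraries, without correction for GC and length. The mean of 3 libraries is a short line. The 3 enzyme classes separate upward in siBRG1, with ratios of 1.54, 1.86 and 2.0, and the V1 genes downward, with a ratio of 0.895. Among single genes the groups did not overlap in 74.3% of all genes tested.

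Base composition differed between the classes. Median transcript GC content was 55.7% for the glycosidases, 57.4% for the cathepsins and 43.5% for the V1 genes, against 48.8% over all genes tested. The V0 genes with ATP6AP1 had a median of 57.3% over 6 genes and a median log2 fold change of −0.10 over the 5 tested. The other proteases of the pathway had 45.4% over 16 genes and 0.69 over the 13 tested. The part of base composition in the changes was not tested. GC content and log2 fold change correlated at a Spearman rho of 0.48 across the 42 genes and of 0.20 across 15811 genes, values that share the 6 libraries and their depth. In the corrected fit 23 of the 42 rose and 10 fell, beside 34.3% and 36.1% of all genes (70.3% called), and the median of the 42 went from 0.36 to 0.19. The hydrolases and PSAP kept 17 rises of 22 and had a median of 0.45, and their falls went from 1 to 3. The proton pump went from 4 rises and 8 falls to 3 and 6, with a median of −0.11.

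**Figure D4:**
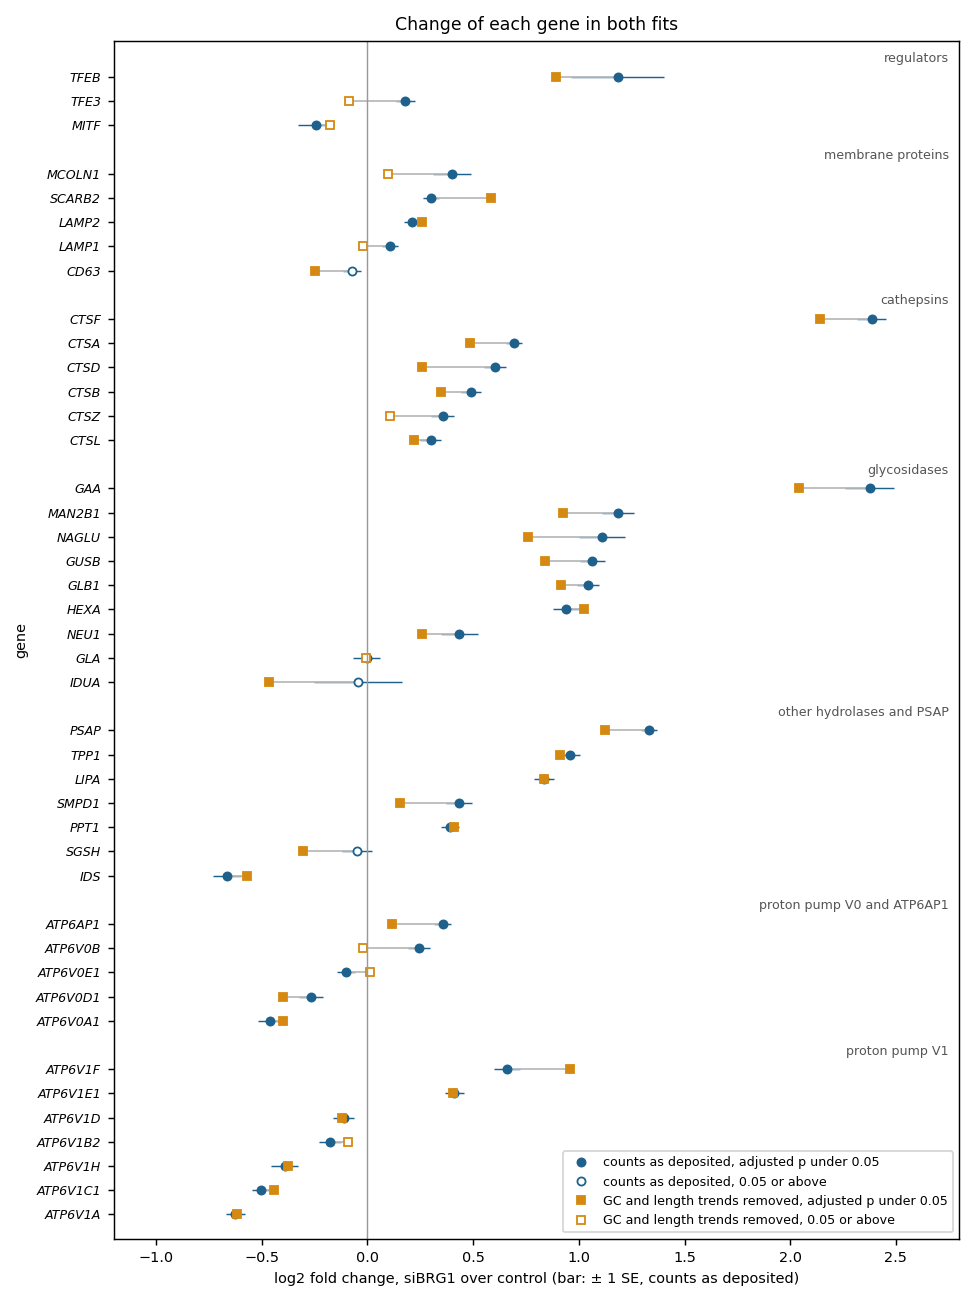
Log2 fold change of each tested gene from the counts as deposited (circles, bars ± 1 SE) and after correction for GC and length (squares), filled where the adjusted p was under 0.05. Most enzymes move left but stay filled and above 0, while TFE3, MITF, MCOLN1, LAMP1, CTSZ, ATP6V0B, ATP6V0E1 and ATP6V1B2 lose their fill. CD63, IDUA and SGSH are filled only after correction, below 0.

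Beyond the 43 genes, 134 others of the lysosomal pathway were listed, of which 120 were tested; 67 rose and 27 fell (median log2 fold change 0.25), beside 36.1% and 36.5% of all genes tested. Among other proteases 10 of 13 tested rose and 1 fell (median 0.69), with LGMN, the asparaginyl endopeptidase legumain, at a log2 fold change of 1.38 (SE 0.0492) and GGH, which trims folate polyglutamates, at 1.18 (SE 0.0494). The single fall was CTSC, a dipeptidyl peptidase, from 231 ± 8.30 to 92.4 ± 2.98 CPM (SD, n = 3; log2 fold change −1.32, SE 0.0437, adjusted p = 8.83e-21). Among other glycosidases and sulfatases 14 of 17 rose and 1 fell (median 0.68), led by GALC, the galactocerebrosidase, at 1.72 (SE 0.0941) and SIAE, a sialic acid esterase, at 1.48 (SE 0.125). Of 8 other lipases, phosphatases and activators 6 rose, among them DNASE2, an acid nuclease, at 1.25 (SE 0.0530) and the cholesterol carrier NPC2 at 0.63 (SE 0.0529), and PLBD2 fell (−0.20, SE 0.0501).

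Other membrane proteins and transporters rose in 14 of 23 tested genes and fell in 5 (median 0.21). TPCN1, an endolysosomal cation channel, and NPC1, the cholesterol exporter, rose by 1.32 (SE 0.0775) and 0.97 (SE 0.0460) on the log2 scale, and the transporters MFSD8 and MFSD12 fell by 0.46 (SE 0.0938) and 0.37 (SE 0.0520). Of other pump subunits and assembly factors 6 of 14 were higher and 5 lower (median −0.04), beside 36.1% and 36.5% of all genes tested. VMA21, the chaperone of V0 assembly, fell from 188 ± 4.67 to 71.6 ± 5.12 CPM (SD, n = 3; log2 fold change −1.39, SE 0.0483, adjusted p = 2.73e-20), and WDR7 fell by 0.32 (SE 0.0656), a call lost after correction. The stalk subunit ATP6V1G1 and the assembly factor CCDC115 rose by 0.85 (SE 0.0530) and 0.95 (SE 0.0841).

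For each list here the shares over all genes tested were 36.1% higher and 36.5% lower. Of 12 delivery receptors and tagging enzymes 5 rose and 3 fell. GNPTG, a subunit of the enzyme that starts the mannose 6-phosphate tag, rose by 1.29 (SE 0.0693), and AP1S1, a clathrin adaptor subunit, by 0.81 (SE 0.0475). SORT1, the sorting receptor sortilin, fell by 0.53 (SE 0.0378), and the adaptor subunit AP1G1 by 0.50 (SE 0.0404). Of 21 tested genes of mTORC1 and Rag control of TFEB 5 rose and 8 fell (median −0.08): the Ragulator subunit LAMTOR4 had a log2 fold change of 1.41 (SE 0.0604) and the GTPase RRAGB one of 1.01 (SE 0.0990), whereas YWHAZ, a 14-3-3 protein, and FNIP1, a partner of folliculin, fell by 1.08 (SE 0.0366) and 0.89 (SE 0.0438). Of 12 tested autophagy genes with TFEB sites 7 rose and 3 fell. GPNMB, a transmembrane glycoprotein often used as a readout of these factors, rose by 1.25 (SE 0.130) and GABARAPL1, an autophagosome protein, by 1.06 (SE 0.0515), while MAP1LC3B, which encodes another, fell by 0.38 (SE 0.0513) and NRBF2 by 0.28 (SE 0.0775).

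**Figure D5:**
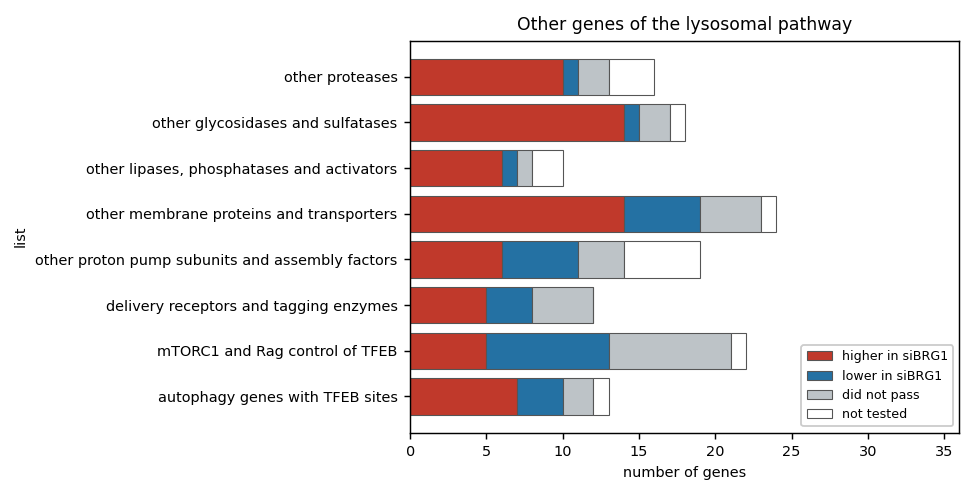
Number of genes (horizontal) in each list of other pathway genes that were higher or lower in siBRG1 at an adjusted p under 0.05, did not pass, or were not tested. Rises fill most of the hydrolase lists, 10 of 13, 14 of 17 and 6 of 8 tested genes; over all genes tested 36.1% rose and 36.5% fell, and the mTORC1 and Rag list had 5 rises and 8 falls among 21 tested genes.

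The authors' deposited table lists all 43 genes. By the adjusted p of the authors' deposited table, 28 are higher and 11 lower (under 0.05), the eleventh fall being CD63 (log2 fold change −0.098), and 4 do not pass. All 38 calls made here have the same direction and a call in the authors' deposited table, whose log2 fold changes lie 0.016 to 0.026 below those given above.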

How the data were processed

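Raw counts per gene were deposited by the authors for each of the 6 libraries, in the layout STAR writes, with unstranded and stranded columns. The submitters' processing notes list STAR, DESeq2, Trim Galore, cutadapt and FastQC with no version, and the build GRCh38.p12. Which annotation release was used is not given in the sources here. Per the labels, libraries were directional mRNA libraries from 500 ng of total RNA. The stranded column with the larger total was used. Of 58336 identifiers 58216 matched GENCODE 29 without their version. The summary lines of each file stayed out of totals and tests: multi-mapping reads were 20.3 ± 1.62% of reads in siBRG1 and 9.81 ± 0.224% in control (SD, n = 3), reads without a feature 3.97 ± 0.194% and 13.3 ± 0.415%, ambiguous reads 3.11 ± 0.0288% and 4.16 ± 0.0271%, and unmapped reads 1.84 ± 0.0732% and 1.64 ± 0.0678%. Within each group all pairs of libraries were further apart than sampling alone gives (2.50 to 4.20 chi-square per degree of freedom), so all were kept.

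Groups were compared in edgeR 4.0.16 (R 4.3.3) by robust quasi-likelihood tests on group (TMM, filterByExpr), two-sided, with Benjamini-Hochberg adjustment over the 15830 genes tested. The SE is the absolute log2 fold change over the square root of F. Level per exon length is CPM over the union exon length in kb. GC and length trends were removed per library with spline offsets. Alternatives included DESeq2 1.42.0, limma 3.58.1 voom, other normalisations, filters and strands, a replicate block and leaving out each library. The authors' deposited table gives log2 fold changes, p-values, a mean signal, a Wald statistic score and standard errors; its mean signal and score were not used.

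The members, lists and alternatives were chosen with earlier results of these data known. Every library value was given for up to 3 members per class with the largest change past adjusted p 0.05 and a mean of at least 50 counts, and for the most abundant member per kb; members that did not pass were added. Of each pathway list up to 2 genes per direction with a mean of at least 100 counts were named. A gene that this rule would name is not reported here.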

Additional observations from a re-analysis of the deposited data

Results flagged for a closer look

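The strand opposite to the genes was not used in any comparison. Of the 43 genes, 3 had a share of antisense counts (of both strands) that was higher in every siBRG1 library than in any control library, on at least 10 antisense counts in siBRG1. That is 3 of 25 members with that many counts (12%), below the 19.1% (1441 of 7538) of all tested genes that met the same rule. The share was 0.890% in siBRG1 and 0.520% in control for CD63, which a gene on the other strand overlaps. It was 0.874% and 0.486% for CTSB. It was 0.362% and 0.270% for PSAP, on 194 and 188 antisense counts. Over all genes the share was 6.03 ± 0.0826% in siBRG1 and 6.16 ± 0.0202% in control (SD, n = 3).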

How the results depend on the processing

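Over 18 alternatives, 28 rises of the 43 genes ranged from 22 to 28 and 10 falls from 5 to 11, while 25 of the 42 tested genes kept direction and call in all of them. Against a null of 1.2-fold, 5 genes fell, and 12 pathway genes fell; regulators had 1 rise and 0 falls, membrane proteins 1 rise, V0 genes 1 rise and 1 fall, and V1 genes 3 falls. With GC and length trends removed, alone or with the replicate block, regulators had 1 rise and 0 falls, membrane proteins 2 rises and 1 fall, other hydrolases 2 falls and V0 genes 1 rise; glycosidases had 1 fall with the trends removed and no block. Membrane proteins had 1 fall with DESeq2 size factors in edgeR, with no count filter and with protein-coding genes alone, and 0 to 1 with a library left out. The longest motif was found for 2 genes. Signs turned with GC and length trends removed, without and with the block, for TFE3 (−0.088 and −0.088), LAMP1 (−0.022 and −0.022), ATP6V0B (−0.019 and −0.020) and ATP6V0E1 (0.011 and 0.010). They turned for GLA with upper-quartile normalisation (0.019), at least 50 counts in 3 libraries (0.010) and unstranded counts (0.041), and with a library left out (−0.068 to 0.044). They turned with unstranded counts for IDUA (0.51) and SGSH (0.062), and with a library left out IDUA ranged from −0.26 to 0.13 and SGSH from −0.12 to 0.0051, above 0 without siBRG1 replicate 3. The cause was not tested. With replicate number as a block 28 genes rose and 10 fell, and 11194 of all genes were called, against 11498 without it. The numbers do not pair the libraries: deviations of same-numbered libraries correlated at −0.016, 0.030 and 0.012, and not every library correlated best with its own number. Depth limits TFEB and IDUA, with 191 and 113 counts over the 3 siBRG1 libraries and 277 and 381 over the 3 control libraries.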
